A study of Mus musculus with 2 samples.

Results

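The axis of leukaemia inhibitory factor (LIF), its receptor chains and the transcription factor STAT3 was examined in EpiSC, mouse epiblast stem cells, which represent the pluripotent epiblast of the implanted embryo. Its 9 genes were Lif, Lifr, Il6st, Osmr, Jak1, Jak2, Stat3, Socs3 and Pim1, out of 31829 gene names and identifiers on the array. They were picked by gene name, with earlier results of the same arrays known. They were read by 12 probes of 60 bases, printed as 21 spots per array, and every probe was kept. The 2 groups were EpiSC clone 2 and EpiSC clone 1, both wildtype, female, of C57BL/6 background and at passage 9, with 1 array each and no treatment other than trypsin at collection. Each group is 1 clonal line, and no LIF-treated, LIF-free or naive cells were among the samples. Differences are clone 2 minus clone 1 and have no replicate check, so no test between clones was made.

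Some background on the pathway helps to read the values. LIF is a secreted cytokine of the interleukin-6 family that binds LIFR, which pairs with gp130, the product of Il6st. The paired chains activate Janus kinases bound to them, which phosphorylate STAT3, and STAT3 then enters the nucleus and switches on targets such as Socs3. Mouse embryonic stem cells in the naive state can be kept self-renewing by LIF, whereas EpiSC are cultured with Activin and FGF and do not depend on LIF.

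In both clones the receptor, kinase, STAT3 and target transcripts of the axis were detected, and the probe of the ligand was not well above background. Of the 12 probes, 10 were well above background on both arrays by the scanner software's flag, against 54.7% of all probes, and these covered 8 of the 9 genes. The other 2 probes, that of Lif and one of Lifr, were not well above background on either array. The clones differed little in the 10 measured probes. None of these was 2-fold apart, where 2.79% of all measured probes were (1.6% higher and 1.19% lower in clone 2). None reached 1.5-fold, where 9.58% of all did. With only 10 probes, finding none is near these shares, so nothing particular to the axis is read from these counts. The median difference over the 10 probes was -0.05 log2, against 0.02 over all 21497 probes measured on both arrays. The members' differences ran from -0.32 to 0.15, and their median size was 0.11 against 0.19 for all probes.

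Both arrays carried the markers of the labelled cells. All 8 epiblast markers, among them Pou5f1, Nanog, Fgf5 and Otx2, were well above background in both clones, with differences from -0.35 to 0.43 log2. For comparison with this and the next 2 lists, 54.5% of all genes had a probe well above background on both arrays. Fibroblast markers were present too: all 10 with a value were well above background on both arrays, and none was near background. Their summed level, in multiples of the array's 75th percentile, was 92.0 in clone 2 and 83.7 in clone 1. Of the 10, 7 were higher and 3 lower in clone 2, with a median difference of 0.12. The sum weighs bright probes most. The difference of the brightest, Col1a2, ranged from -0.09 to 0.14 over the settings described below. Col1a1 had no value in clone 2. Of 7 macrophage markers, 5 were well above background on both arrays. The others were dim and so in 1 clone only, Ptprc in clone 1 (-4.6 in clone 2 and -3.9 in clone 1) and Cd68 in clone 2 (-4.1 in clone 2 and -4.7 in clone 1). The summed levels of all 7 were 3.84 in clone 2 and 3.47 in clone 1. Of the 5 markers, 2 were higher and 3 lower in clone 2, with a median difference of -0.02. The higher sum rests on 1 probe of Csf1r (difference 0.83, against 0.09 for its other measured probe). Fibroblasts and macrophages can express receptors of this cytokine family, and the part of such cells in the signals below was not tested. In RNA from whole cultures, fewer cells of a type and less RNA per cell cannot be told apart.

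1 probe sequence and 1 promoter sequence are given, because they show what the probe of a target kinase reads and where a STAT-type motif lies. The Pim1 probe below starts at base 779 of NM_008842 in the array design, and 2 of its reading frames hold no stop codon. It is written 5′ to 3′ in lower case, on mm9 at chr17:29630740-29630799 (plus strand).
Pim1 probe: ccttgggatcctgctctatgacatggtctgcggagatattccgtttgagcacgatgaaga
The promoter is that of Socs3, from RefSeq on GRCm38.p6, chr11:117969367-117969616 (minus strand), the 250 bases before the start site. Capitals mark the motif TTCNNNGAA, the palindromic pattern that STAT dimers are known to bind.
Socs3 promoter: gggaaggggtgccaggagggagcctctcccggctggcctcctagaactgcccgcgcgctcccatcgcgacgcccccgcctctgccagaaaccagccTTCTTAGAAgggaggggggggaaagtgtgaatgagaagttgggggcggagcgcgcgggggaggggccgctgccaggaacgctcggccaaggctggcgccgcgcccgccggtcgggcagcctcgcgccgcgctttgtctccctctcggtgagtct

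All 9 genes matched the RefSeq promoter table, with 11 promoters of 300 bases (250 before and 50 after a start site). The motif is its own reverse complement, so a search of one strand covers both. It was found in 1 of the 11 windows, that of Socs3, where it starts 154 bases before the start site. Of all 32851 promoters in the table, 8.30% held it. A match is a description of the letters in this window and not evidence of binding in these cells.

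Signals are given as the processed intensity of the scanner file and then as log2 of that intensity relative to the array's 75th percentile, which was 736 in clone 2 and 830 in clone 1. A probe's brightness also depends on its own sequence, so levels are set only against the same probe in the other clone. For scale, the median of the 153 negative control spots was 7.13 in clone 2 and 7.96 in clone 1.

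The ligand gave no signal well above background. Lif, the cytokine that gives the axis its name, was read by 1 probe on chromosome 11 (4172032 to 4172091 in mm9, plus strand), from base 3529 of its transcript. Its intensity was 24.0 in clone 2 and 19.7 in clone 1, which is 3.37 and 2.48 times the negative control median. The software's own error of these values was 30.4% in clone 2 and 43.7% in clone 1. By the more lenient flag of a positive and significant signal, the probe passed on both arrays. No fold is given because neither value was well above background.

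Of the receptor chains, the signal-transducing gp130 and the oncostatin M receptor gave nearly equal values in the clones, and the 3 Lifr probes were not all well above background. Il6st, which encodes gp130, the chain shared by the receptors of the family, had an intensity of 929 in clone 2 and 1078 in clone 1. Relative to the 75th percentile these were 0.34 and 0.38, a difference of -0.04. Osmr, which pairs with gp130 to bind oncostatin M, had 818 in clone 2 and 943 in clone 1, or 0.15 and 0.18 on the log2 scale. Its difference was -0.03. Neither difference exceeded the noise between spots, whose SD at these signals was 0.11 and 0.13. The Il6st probe lies on chromosome 13 (113296586 to 113296645) and the Osmr probe on chromosome 15 (6763686 to 6763745, minus strand).

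Lifr, which encodes the receptor chain that binds LIF, was read by 3 probes on the plus strand of chromosome 15. The probe near the far end of transcript variant 1 (7147319 to 7147378, base 9492 of NM_013584) had an intensity of 110 in clone 2 and 144 in clone 1. These were -2.74 and -2.53 relative to the 75th percentile, and 15.4 and 18.1 times the negative control median. A second probe of that variant (7141150 to 7141209, base 3323) had 38.4 in clone 2 and 51.0 in clone 1. Both probes were lower in clone 2, by differences of -0.21 and -0.24, and each difference was smaller than 2 SDs of spot noise (SD 0.18 and 0.33). Normexp background correction starts from the unprocessed spot and local background signals and handles dim spots differently. With it, both turned to 0.25 and 0.64, so no direction is read from them. It also raised dim probes of other pathway genes, such as Clcf1 (0.23 to 0.63) and Pias3 (-0.06 to 0.35). The median over all probes rose from 0.02 to 0.12. Such upward shifts are thus not particular to Lifr, and that of Pias3 also changed the sign. The second probe was also not above the mean plus 2 SD of the negative controls on both arrays, which leaves 1 Lifr probe above every background rule tried.

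The third Lifr probe was assigned by the array design to transcript variant 2 (NM_001113386, 7135072 to 7135131). Mouse Lifr is known to give a soluble receptor from a shorter transcript besides the membrane receptor. This probe had an intensity of 13.0 in clone 2 and 28.9 in clone 1, and neither was well above background. The values were 1.82 and 3.62 times the negative control median, so no fold is given.

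**Figure D1:**
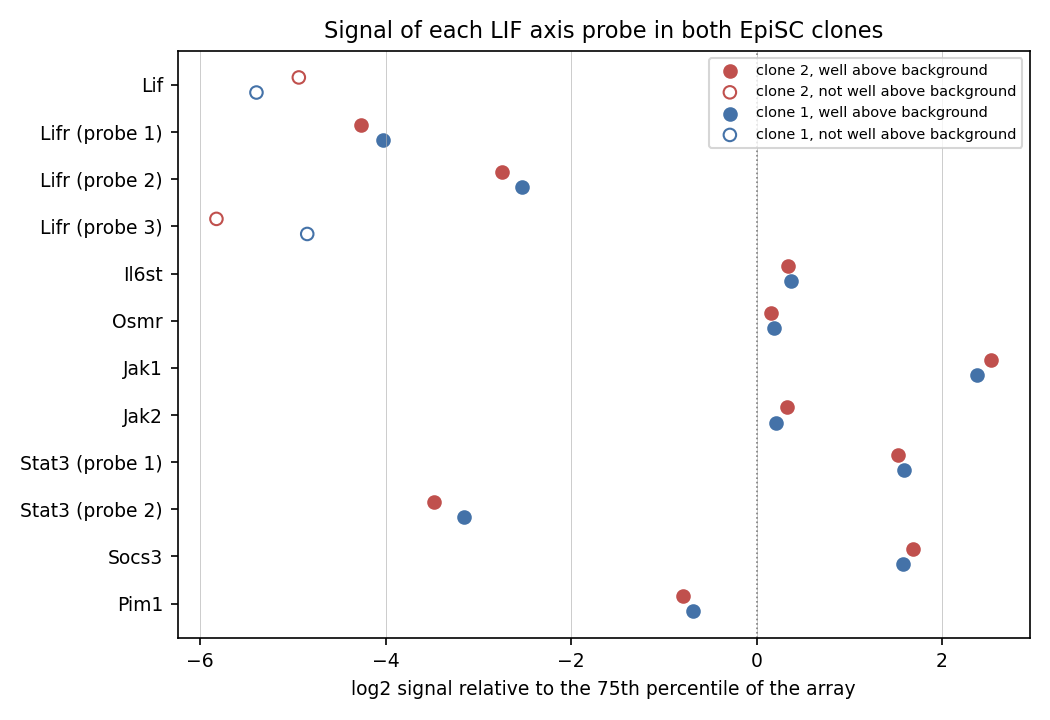
Signal of each of the 12 probes as log2 of the processed intensity relative to the array's 75th percentile (x axis), with clone 2 above clone 1 in each row and 1 array per clone. Filled points were well above background and open points were not. The open points are those of Lif and of Lifr probe 3 (variant 2). Lifr probe 1 starts at base 3323 and probe 2 at base 9492, and Stat3 probe 1 is the one printed 10 times. Brightness is not comparable between probes.

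The kinases of the axis were detected in both clones. Jak1, the Janus kinase on which gp130 signalling mainly relies, had an intensity of 4247 in clone 2 and 4332 in clone 1. After scaling these were 2.53 and 2.38, a difference of 0.15 that amounted to 1.42 SDs of spot noise. With normexp correction it was -0.03, so its direction depends on the setting. Jak2, a second Janus kinase that gp130 can engage, had 922 in clone 2 and 959 in clone 1, or 0.33 and 0.21 after scaling. Its difference of 0.12 was 0.94 SDs. In both cases the unscaled intensity was lower in clone 2 and the scaled value higher, since the 75th percentile of that array was lower. The probes lie on chromosome 4 (100825094 to 100825153, minus strand) and chromosome 19 (29387487 to 29387546, plus strand), at base 4724 of the Jak1 transcript and base 4946 of that of Jak2.

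Stat3, the transcription factor at the centre of the axis, was the member measured with the most spots. One of its 2 probes, on chromosome 11 (100749598 to 100749657, minus strand, base 2953 of NM_213659), was printed 10 times on each array. One spot carried an outlier flag on both arrays and was left out. The intensity of the other 9 spots ranged from 2031 to 2264 with a median of 2084 in clone 2, and from 2400 to 2696 with a median of 2487 in clone 1. After scaling the spots lay between 1.47 and 1.62 in clone 2 and between 1.53 and 1.70 in clone 1. The scaled ranges overlapped, with 3 spots of clone 2 inside the range of clone 1. The mean was 1.53 ± 0.06 in clone 2 and 1.59 ± 0.06 in clone 1 (SD over 9 spots of 1 array each).

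The difference in means was -0.06 log2, and at 7 of the 9 positions the spot of clone 2 was lower. That is 2.23 times the standard error that the spots give, but this error covers printing and scanning of 1 RNA sample per clone, not the spread between cultures. Under the other settings the difference lay between -0.15 (normexp correction) and -0.05 (outlier spots kept), so its size depends on the setting. Scaling to the 75th percentile of probes well above background on both arrays gave -0.14, and quantile normalization gave -0.13. The second Stat3 probe was dim, with an intensity of 65.8 in clone 2 and 93.0 in clone 1. Its difference was -0.32, or 1.46 SDs of spot noise, and it turned to 0.23 with normexp correction. The repeated Stat3 probe was lower in clone 2 under every setting tried, and the dim one under every setting except normexp correction.

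**Figure D2:**
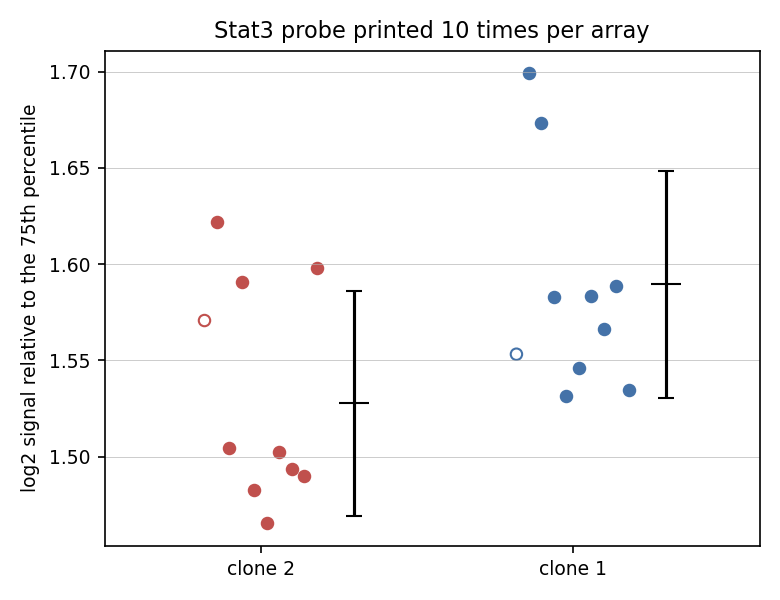
The 10 spots of the repeated Stat3 probe on the arrays of clone 2 and clone 1, as log2 signal relative to the array's 75th percentile (y axis, which does not start at 0). The open point is the spot with an outlier flag, and bars are the mean ± SD of the other 9 spots, 1.53 ± 0.06 in clone 2 and 1.59 ± 0.06 in clone 1. The ranges of the clones overlap.

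The targets of STAT3 among the members were detected in both clones. Socs3, a feedback inhibitor that binds gp130 and Janus kinases and whose promoter carries the motif shown above, had an intensity of 2362 in clone 2 and 2478 in clone 1. After scaling these were 1.68 and 1.58, a difference of 0.11 that amounted to 0.64 SDs of spot noise. Its probe lies on chromosome 11 (117827480 to 117827539, minus strand), at base 2585 of the transcript. Pim1, a serine/threonine kinase that promotes survival and growth, had 425 in clone 2 and 517 in clone 1. After scaling these were -0.79 and -0.68, a difference of -0.11 or 0.78 SDs. The Pim1 spot of clone 2 carried an outlier flag on its local background, and the spot itself was not flagged. Socs3 was thus slightly higher and Pim1 slightly lower in clone 2, in both cases within the spot noise.

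Across the members, 7 of the 10 measured probes were lower in clone 2 and 3 were higher, where 46.4% of all measured probes were lower. Of the 9 measured probes that were printed once, none differed by more than 2 SDs of spot noise. Of all 21233 such probes, 34.0% did. With the median of the noise in place of its root mean square, again no such axis probe did, against 41.1% of all. The software's own error model gave wider errors, 0.20 log2 or more for each difference, and no member exceeded 2 of these. By sign alone, Lifr, Il6st, Osmr, Stat3 and Pim1 were lower in clone 2 and Jak1, Jak2 and Socs3 were higher. With normexp correction the signs of Lifr, Jak1 and the dim Stat3 probe turned.

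**Figure D3:**
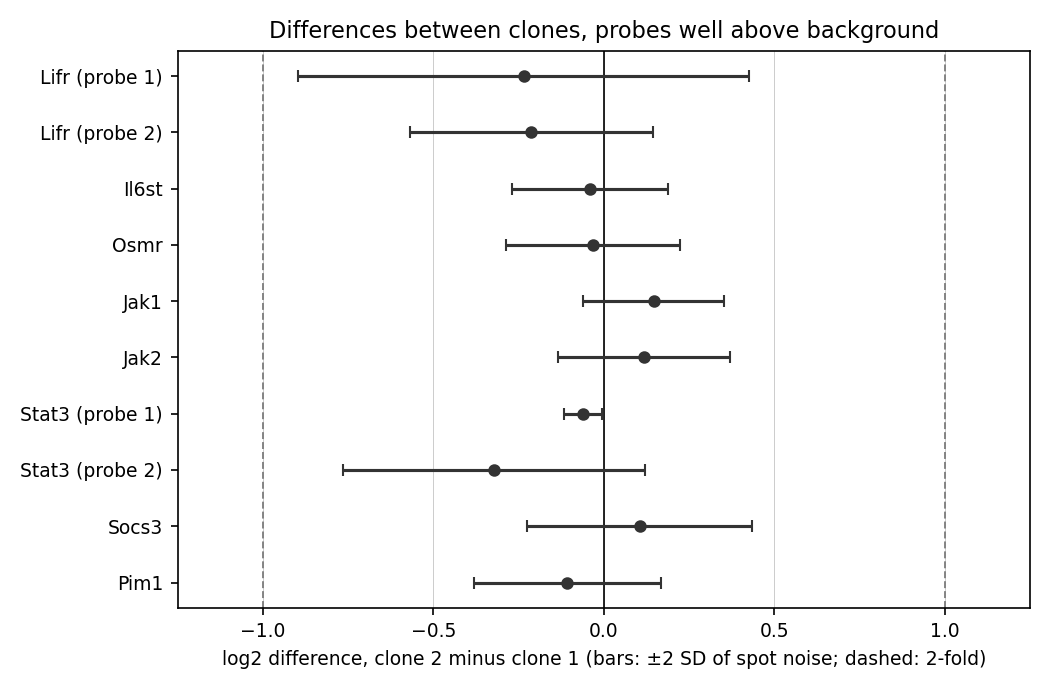
Log2 difference of each of the 10 probes well above background on both arrays (x axis, clone 2 minus clone 1). Bars span 2 SDs of spot noise to each side, taken from probes printed 10 times with similar signal, or 2 standard errors from its own spots for Stat3 probe 1. Dashed lines mark 2-fold. All points lie between -0.32 and 0.15, and only the bar of Stat3 probe 1 leaves out 0.

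The sign of 6 of the 10 measured probes was the same under every setting tried. Over the main and 5 other settings, Il6st ranged from -0.12 to -0.04, Osmr from -0.11 to -0.03 and Pim1 from -0.18 to -0.07. Jak2 ranged from 0.04 to 0.12 and Socs3 from 0.03 to 0.15. The sixth was the repeated Stat3 probe. In the authors' deposited table the differences were -0.07 for Il6st, -0.04 for Osmr, 0.06 for Jak1, 0.11 for Jak2, 0.03 for Socs3 and -0.08 for Pim1. A sign change occurred for 4 probes, both measured Lifr probes, Jak1 and the dim Stat3 probe, in each case with normexp correction alone.

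**Figure D4:**
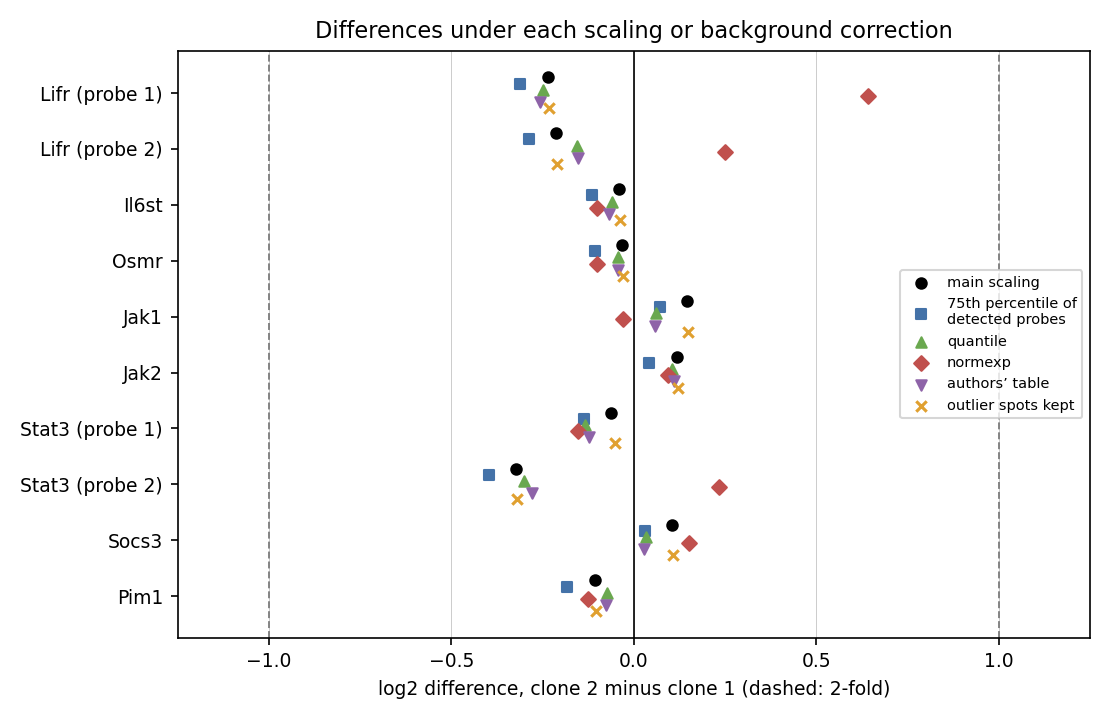
Log2 difference of the 10 measured probes (x axis, clone 2 minus clone 1) under the main scaling and 5 other settings, 1 marker each. Dashed lines mark 2-fold. Normexp correction moved the dim probes of Lifr (0.64 and 0.25) and Stat3 (0.23) to the other side of 0, and no setting brought a measured member to 2-fold.

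The rest of the pathway was taken from 7 lists with 56 further genes, all of them on the array. Of these, 48 were well above background on both arrays, where 54.5% of all genes had such a probe. By the brightest measured probe of each gene, 1 differed by 2-fold or more, against 2.87% of all genes in either direction. The 48 genes had a median difference of 0.09, against 0.04 for all genes.

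Among 10 cytokines and cytokine subunits that signal through gp130, 7 were well above background on both arrays. Il6 and Ctf2 were so on neither array, and Osm, the ligand of the receptor chain Osmr, was in clone 2 only. Osm was -4.24 in clone 2 and -4.52 in clone 1, which differ by less than 1 SD of spot noise (SD 0.36), so no fold is given. Cntf, ciliary neurotrophic factor, was -2.33 in clone 2 and -2.08 in clone 1, and its difference of -0.24 turned to 0.10 with normexp correction. The second Cntf probe was dim, at -4.21 in clone 2 and -3.62 in clone 1, and well above background in clone 1 only.

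The chains that give the other receptors their ligand were measured for 3 of 4 genes. Il11ra1, the receptor for interleukin-11, was 2.02 in clone 2 and 2.71 in clone 1, a difference of -0.69. Cntfr, the receptor for ciliary neurotrophic factor that also joins LIFR and gp130, was -0.03 in clone 2 and -0.74 in clone 1, a difference of 0.72. The second Cntfr probe differed by -0.01. Il6ra, which makes cells responsive to interleukin-6, was -1.95 in clone 2 and -2.04 in clone 1. The probe of Il27ra was well above background in neither clone.

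Of the remaining kinases and STAT factors, Tyk2 and Jak3 differed by -0.10 and -0.02 between the clones, and the second Jak3 probe by 0.22. Stat2, Stat5a, Stat5b and Stat6 were well above background in both, with differences from 0.10 to 0.41, the largest for Stat5b (1.20 in clone 2 and 0.79 in clone 1). Stat4 was -5.72 in clone 2, where it was not well above background, and -3.19 in clone 1, where it was. Against the lowest detected signal of clone 2, -4.57, it was 2.60-fold lower in clone 2. Probes brighter than that signal could also miss the flag in clone 2, such as the second Cntf probe at -4.21. The fold is thus not a strict lower bound. It also makes no allowance for spot noise (SD 0.37), and Stat4 values under other scalings or corrections are not given.

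All 15 SOCS, PIAS and phosphatase regulators were well above background in both clones. Their differences ran from -0.25 to 0.40 with a median of 0.02, and 8 were higher in clone 2. Socs5 (-1.36 in clone 2 and -1.76 in clone 1) and Cish (-0.62 in clone 2 and -0.99 in clone 1), both of the SOCS family, had the highest of these differences. The Pim1 relatives Pim2 and Pim3 differed by -0.19 and -0.08.

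Of 17 other genes known as STAT3 targets in some cells, 15 were well above background on both arrays. Of these 11 were higher in clone 2, where 55.7% of all genes were, and the median difference was 0.26. None reached 2-fold. Gbx2, a homeobox factor that can stand in for LIF in mouse embryonic stem cells, was -3.41 in clone 2 and -2.51 in clone 1. Its difference of -0.90 was 0.01 with normexp correction. Fos, an immediate-early factor, was -2.56 in clone 2 and -3.33 in clone 1, and Egr1, another, was 2.17 in clone 2 and 1.44 in clone 1. Both also respond to ERK signalling. Tfcp2l1, a naive-state factor downstream of LIF, was -2.88 in clone 2 and -3.62 in clone 1, and its second probe was higher in clone 2 by 0.49. Icam1 was well above background in clone 2 only, at -3.44 in clone 2 and -4.13 in clone 1 (spot SD 0.30), so no fold is given. Zfp36 was so in neither clone. These lists were drawn up with earlier results of the same arrays known, and nothing particular to them is read from the counts.

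**Figure D5:**
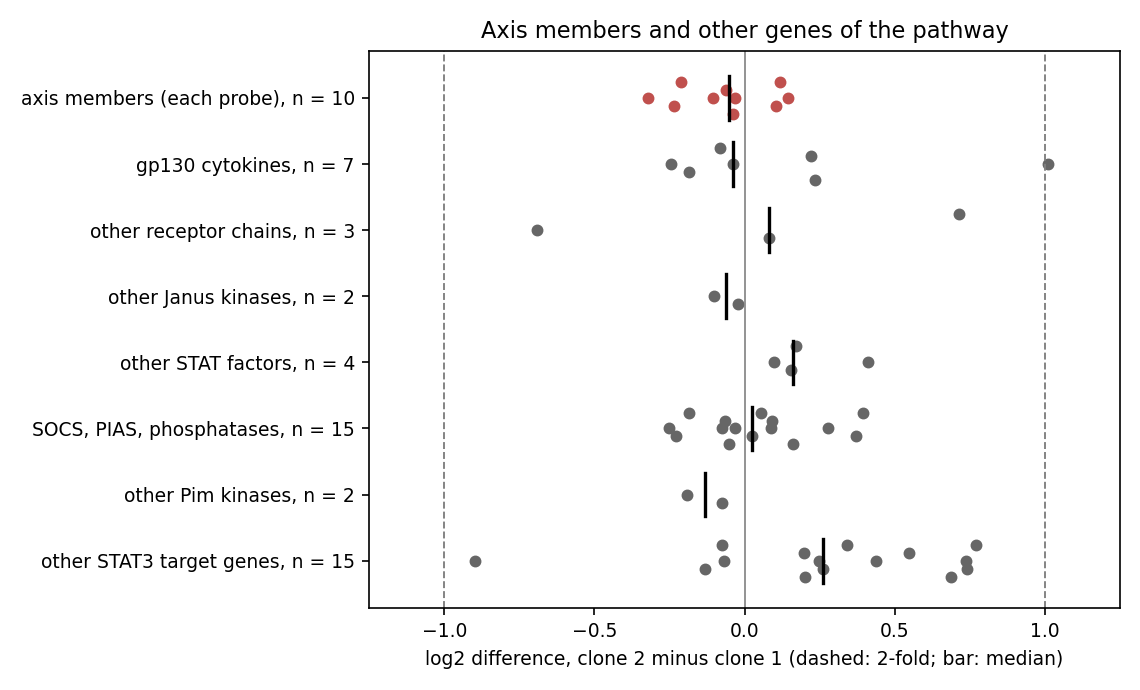
Log2 differences (x axis, clone 2 minus clone 1) of the 10 measured axis probes (top row) and of the 48 other pathway genes, by list, 1 point per gene at its brightest measured probe. Vertical bars are medians and dashed lines mark 2-fold. The axis probes lie between -0.32 and 0.15 and the median of each list between -0.13 and 0.26.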

How the data were processed

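Total RNA of both clones, isolated with Trizol and a column, was labelled with Cy3 from 0.2 ug and hybridised to 1-colour Agilent mouse arrays (design 026655), per the labels and the file headers. The deposited scanner files hold the processed signal intensity of each spot from Feature Extraction 11.0.1.1, corrected for background and spatial trends, per the file headers. A table deposited by the authors holds normalized intensity values on a linear scale. Its normalization method is not stated in the labels and headers, and it served only as an alternative. Probe positions are on mm9, per the file headers. Exon and UTR annotation of that build was not used here.

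From 43020 spots that were not controls, those with a feature outlier flag were left out (246 in clone 2, 277 in clone 1), the log2 intensities of each probe's remaining spots were averaged, and each array's 75th percentile was subtracted. Detection required the well-above-background flag on 50% or more of a probe's spots. Probes measured on both arrays correlated at Pearson's r = 0.989 (across 21497 probes, which are not replicates). With 1 array per clone, no p-value was computed. Spot noise is the root mean square SD of a difference between arrays over the 25 probes printed 10 times nearest in signal. Over 264 such probes the median SD within an array was 0.08 in clone 2 and 0.07 in clone 1. For genes detected in 1 clone whose other value lay below that array's lowest detected signal, the fold is taken against that signal. It is not a strict lower bound, since some brighter probes also missed the flag. The lowest detected signal was -4.57 in clone 2 and -4.56 in clone 1, and where the other value was higher no fold is given. The number of arrays limits the precision.

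The genes and lists were chosen with earlier results of these data known. All axis genes are named. Some results on other pathway genes and 1 probe sequence are not reported here. Other pathway genes are named at 2-fold, or as examples with the largest difference of their list, and a few others (Osm, Icam1, Il6ra and genes not well above background) after their values were seen. The scaling and counting steps were tested on simulated data. Tools were Python 3.11.15, pandas 2.3.3, numpy 2.4.6 and limma 3.58.1 in R 4.3.3 (normexp with offset 50, quantile normalization).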

Additional observations from a re-analysis of the deposited data

How the results depend on the processing

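The count of axis probes at least 2-fold apart was 0 under all 8 alternatives, including 1.5-fold, each varied alone. The third Lifr probe, not well above background on either array, lay near that limit, at -0.98 in the main setting. It was -1.05 with the 75th percentile of detected probes and with quantile normalization, past 2-fold, and 0.61 with normexp. The median difference of the measured axis probes stayed within -0.13 to 0.03, and normexp correction gave the positive value. The median over all probes, 0.02, was -0.05 with the 75th percentile of detected probes and 0.12 with normexp. The number well above background on both arrays was 12 by the positive and significant flag and 9 against the negative controls. None of the 9 axis probes printed once exceeded 2 spot SDs with the median in place of the root mean square, an alternative chosen after seeing the data. Of 50 values of single axis probes under alternatives, 8 moved by more than their spot noise, 4 of them for the repeated Stat3 probe. The count of other pathway genes at least 2-fold apart was 1. It was 0 with the 75th percentile of detected probes, quantile normalization, normexp or the authors' deposited table, and 2 without the filter on dim probes. Over all probes the count of 599 became 332 with normexp, 2662 without the filter on dim probes and 2059 at 1.5-fold. No paired analysis was possible because each clone has 1 array. Leaving out an array would leave no comparison. Dim probes (Lif, Lifr, the second Stat3 probe) are limited by their signal over background.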
